A study of Nezara viridula with 24 samples.

Results

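In the southern green stink bug, Nezara viridula, 30 genes had RNA levels that climbed in 2 steps along the midgut, from the first section, M1, through M2 to M3. They are 30 of the 201329 Trinity genes (groups of assembled transcripts, called isoforms, that share sequence) into which the deposited table sorts 298322 transcripts. The genes were chosen by their measured values: the median over the 6 libraries of a section, in CPM (a count scaled to the total of its library) with an offset of 0.5 CPM added, had to be at least 3 times as high in M2 as in M1, at least 3 times as high in M3 as in M2, and at least 10 in M3. The differences between sections are therefore given below as a description, with no test. The salivary glands, and the steps in libraries that did not take part in a choice, are measures that the rule did not use. The midgut levels set beside the gland levels were used by it. The contrast between diets was not part of the rule either, but it was computed from the same midgut libraries, so it is not independent of the choice of genes.

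The insects were adults on green bean or corn, which fed on that diet for 24 h after the adult moult until their tissues were taken. The groups were M1, M2 and M3 on green bean, M1, M2 and M3 on corn, salivary glands on green bean and salivary glands on corn, with 3 libraries each, so 24 in all. Every library was polyA RNA from 1 tissue pooled over 4 to 10 individuals, and no strain, sex or gene alteration is given for any group. The submitters call the replicates biological, but the labels do not say whether separate cultures supplied them, and p-values here reflect nothing beyond the spread among these pools. In bulk tissue, fewer cells of a type and less RNA per cell cannot be told apart.

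Stink bugs push their stylets into plant tissue, release saliva and suck up a partly liquefied meal. The midgut that receives it is divided into sections along its length, of which the front ones are known mainly for storing, digesting and absorbing the meal, while a more posterior section of many stink bugs houses bacterial symbionts. Digestive enzymes of plant-feeding true bugs are secreted both with the saliva and into the midgut, which is why salivary gland values stand beside the midgut values here. The deposited tables do not pair Trinity identifiers with gene names, so no function is assigned to any of the 30 genes, and the labelled sections could not be checked against markers of gut regions. No sequence of these genes is printed, since the sources used here hold none.

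Library totals lay between 17819164 and 33954593 estimated counts, so 3 counts in a library corresponded to between 0.0884 and 0.168 CPM. Corn midgut replicates 2 and 3 stood apart, with 38270 to 59476 genes detected against 64667 to 122664 in the other midgut libraries. Scaling factors from the trimmed mean of M-values (TMM), which the tests use to make libraries comparable, ran over a range of 0.52 to 1.58. They were 1.13 to 1.22 in green bean M2 and 0.62 to 1.32 in corn M2. Levels below are plain CPM, as in the rule, and are not corrected for transcript length, which the tables do not give, so a larger CPM in one gene than in another says only that it drew more counts.

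**Figure D1:**
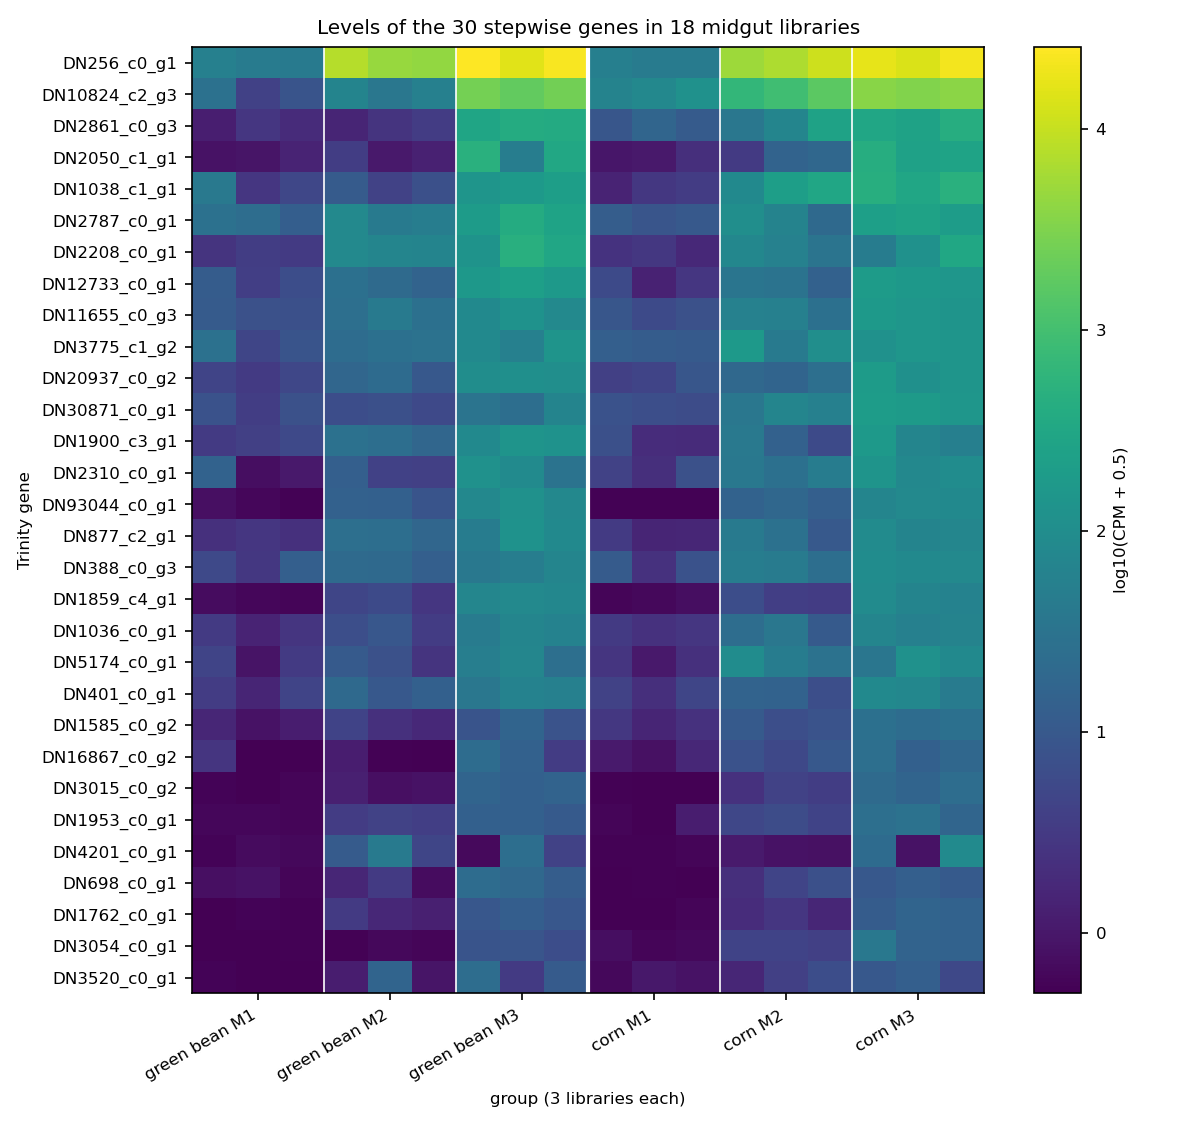
Each row is 1 of the 30 genes, ordered by M3 level, and each column is 1 library, in blocks of 3 for green bean M1, M2 and M3 and then corn M1, M2 and M3. Colour is log10(CPM + 0.5). In most rows the colour brightens from M1 to M2 to M3 in both diets, while the M2 blocks differ between diets in rows such as DN2861_c0_g3.

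On the scale with the offset, the first step, M2 over M1, ranged from 3.08 to 131.5-fold with a median of 4.69, and the second step, M3 over M2, ranged from 3.10 to 90.9-fold with a median of 4.82. The whole climb from M1 to M3 ranged from 11.3 to 424.3-fold, with a median of 25.1. The first step was the larger one in 16 genes and the second in 14. No gene missed membership on the M3 minimum alone. In 184 genes only the first step fell short, and in 172 only the second. Just inside the limits lay DN30871_c0_g1, with a first step of 3.08, and DN5174_c0_g1, with a second step of 3.10. Just outside lay DN1435_c1_g1, with a first step of 2.99, and DN17042_c4_g1, with a second step of 2.95. The member closest to the M3 minimum was DN3520_c0_g1, at 10.5 with the offset.

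The 30 genes differed widely in M3. Their M3 medians ran from 9.96 to 19470 CPM, with 13 genes at 100 CPM or more and 9 under 20 CPM. In M1, 11 genes had a median under 1 CPM and 8 a median under 0.1 CPM, which is about the level of 3 counts in a library. Over the 6 M1 libraries together the genes had between 4 and 7353 counts, and 9 genes had fewer than 30. For these genes the offset sets most of the M1 value, so the fold of their first step understates the change.

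Across the 6 libraries of a section, every M3 library lay above every M1 library in 29 of the 30 genes. The exception was DN4201_c0_g1. Its M3 values were 0.161, 24.9 and 3.77 CPM on green bean and 21.4, 0.354 and 89.4 CPM on corn, so single libraries of M3 fell back to levels close to those of M1. The steps themselves were less clean. All M2 libraries exceeded all M1 libraries in 14 genes, all M3 libraries exceeded all M2 libraries in 18, and both held in 12. The same libraries chose the genes, so these counts are partly built in. The shares over all genes were not computed. Relative to the mean, the spread between pools was smaller toward M3, where the rule made these genes high. The lowest sum of counts over the 6 libraries was 4 in M1 and 1771 in M3. Counting error weighs more where counts are few, and its part in the values below was not tested. The median coefficient of variation over the 30 genes was 60.8% in M1, 39.0% in M2 and 25.6% in M3 on green bean, and 53.1%, 40.1% and 21.7% in the same sections on corn.

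The gene with the highest M3 level was DN256_c0_g1. On green bean it measured 55.7, 45.5 and 43.4 CPM in M1, 7524, 4891 and 4428 CPM in M2, and 25712, 15500 and 23132 CPM in M3. On corn it measured 53.5, 45.2 and 45.3 CPM in M1, 5331, 6732 and 11031 CPM in M2, and 17418, 13970 and 21517 CPM in M3. The 3 sections did not overlap within either diet, and the diets overlapped in every section. DN256_c0_g1 alone took 2.14% ± 0.53 of all counts in green bean M3 and 1.76% ± 0.378 in corn M3 (SD, n = 3 each).

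The share of all counts that the 30 genes took together was 0.0167% ± 0.0076 in M1, then 0.606% ± 0.174 in M2 and finally 2.65% ± 0.549 in M3 for green bean (SD, n = 3 each). For corn it was 0.0221% ± 0.0033 in M1, then 0.976% ± 0.353 in M2 and finally 2.44% ± 0.43 in M3 (SD, n = 3 each). In M2 and M3, but not in M1, most of this was DN256_c0_g1. Without it, the other members held 0.0441% ± 0.0076 of the counts in green bean M2, while they held 0.206% ± 0.0565 of those in corn M2 (SD, n = 3 each). The green bean M2 shares of those other members were 0.0509%, 0.0455% and 0.0358%, all below the corn M2 shares of 0.165%, 0.183% and 0.270%. With DN10824_c2_g3, described next, left out as well, the remaining 28 genes held 0.0388% ± 0.00745 in green bean M2 and 0.0983% ± 0.00714 in corn M2 (SD, n = 3 each).

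The next highest gene in M3 was DN10824_c2_g3. On green bean it measured 27.7, 3.56 and 7.71 CPM in M1, 67.2, 36.0 and 55.4 CPM in M2, and 2669, 1883 and 2530 CPM in M3. On corn it measured 63.5, 77.1 and 122.0 CPM in M1, 660.0, 916.0 and 1649 CPM in M2, and 3689, 3361 and 3911 CPM in M3. The diets did not overlap in any section, with the green bean libraries always below the corn libraries. The gap was widest in M2. There the green bean mean was 2.24% of the green bean M3 mean, while the corn M2 mean was 29.4% of the corn M3 mean.

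The isoforms of a gene can follow a different course from their sum. The 30 genes had 125 isoforms, with a median of 3 and a maximum of 14 per gene, and 16.7% of the genes had a single isoform. Among the 5909 genes that meet the same M3 minimum, the median was also 3 and 23.4% had a single isoform. Of the 84 isoforms with a mean of at least 1 CPM in M3, 32 met both steps on their own, and 1 was lower in M3 than in M1. By means over both diets, the isoform with the largest share was the same in M2 and M3 in 28 genes. Between M1 and M3 it differed in 6 genes.

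That 1 isoform, i6, belongs to DN256_c0_g1, whose climb came from other isoforms. Isoform i6 held 96.6% of the gene's counts in M1. It was highest in M2, and its M1 and M3 libraries overlapped. It measured 47.0 ± 7.64 CPM in M1, 175.3 ± 49.8 CPM in M2 and 39.4 ± 5.61 CPM in M3 on green bean, and 45.9 ± 5.29, 86.3 ± 27.3 and 35.6 ± 12.99 CPM in the same sections on corn (SD, n = 3 each). Isoform i7 was near the limit of detection in M1, at 0, 0 and 0.286 CPM on green bean and 0.431, 3.42 and 0 CPM on corn. In M2 it measured 4993 ± 1092 CPM on green bean and 7354 ± 3068 CPM on corn, and in M3 20840 ± 5283 CPM on green bean and 17180 ± 3773 CPM on corn (SD, n = 3 each). It held 92.8% of the gene's counts in M2 and 97.3% in M3. The gene's M1 level was thus almost wholly i6, and its fold from M1 to M3 compares different isoforms.

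By means over both diets, the 2 genes with the highest M3 level whose leading isoform differed between M2 and M3 were DN3775_c1_g2 and DN401_c0_g1. In DN3775_c1_g2, isoform i4 averaged 18.2 ± 7.70 CPM in M2 and 51.3 ± 3.42 CPM in M3 on green bean, and 20.7 ± 33.1 and 68.6 ± 62.4 CPM on corn (SD, n = 3 each). Its isoform i1 averaged 7.84 ± 8.88 CPM in M2 and 41.1 ± 42.9 CPM in M3 on green bean, and 87.8 ± 40.1 and 67.8 ± 63.0 CPM on corn (SD, n = 3 each), so its course differed in direction between the diets, within a wide spread. In DN401_c0_g1, isoform i9 averaged 2.09 ± 1.53 CPM in M2 and 17.0 ± 7.80 CPM in M3 on green bean, and 0.627 ± 0.545 and 21.0 ± 14.3 CPM on corn (SD, n = 3 each). Its isoform i11 averaged 7.63 ± 2.62 CPM in M2 and 6.60 ± 3.62 CPM in M3 on green bean, and 1.03 ± 0.970 and 3.36 ± 1.95 CPM on corn (SD, n = 3 each). Within each diet the change of lead was less clear. In DN3775_c1_g2, i4 already had the higher mean in green bean M2, and the corn M3 means were nearly equal. Over both diets, i4 led in only 3 of the M3 libraries. In DN401_c0_g1, corn M2 was led not by i11 but by that gene's isoform i4, at 3.38 ± 1.29 CPM (SD, n = 3). Its isoform i9 led in 4 of the M3 libraries. Reads shared by isoforms have to be divided among them by estimation, so these shares are uncertain.

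Each of the 30 genes came from a separate Trinity component (a cluster of overlapping reads). Those components held 31 other Trinity genes, of which 5 reached the M3 minimum. Of these 5, all chosen here for their place beside a member, DN1859_c4_g2, DN388_c0_g1 and DN388_c0_g2 were higher at both steps, with 2.36 and 11.1, 3.54 and 2.03, and 5.80 and 1.69-fold, and DN2861_c0_g2 was higher in M2 and lower in M3, with 2.04 and 0.780-fold. In the component of the leading gene, DN256_c0_g2 ran the opposite way, with medians including the offset of 11530 in M1, 5921 in M2 and 5056 in M3. Reads could be shared between it and DN256_c0_g1, and the part of such sharing in the M1 level of isoform i6 was not tested.

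By their medians, the genes climbed differently on the 2 diets. On green bean it was mainly the first step that fell short: 13 of the 30 genes had an M2 to M1 ratio under 3, while 2 had an M3 to M2 ratio under 3. On corn it was mainly the second: 1 gene had an M2 to M1 ratio under 3, and 13 had an M3 to M2 ratio under 3. In most of the 30 genes these steps still reached 3. Taken from the means of 3 libraries, M2 was a median of 14.6% of M3 over the 30 genes on green bean, with a range of 0.511% to 193.7%. On corn the median was 30.3%, with a range of 1.13% to 79.6%. Applied to each diet alone, the rule kept 14 of the 30 genes on green bean and 16 on corn. Both diets kept 8 of them and neither kept 8 others. A median over 6 libraries lies between the diets where the diets do not overlap, so the rule favours genes whose M2 level differs by diet. The direction of that difference is not part of the rule, but its size, and so the number of genes called or separated in M2, is partly built in by the choice.

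**Figure D2:**
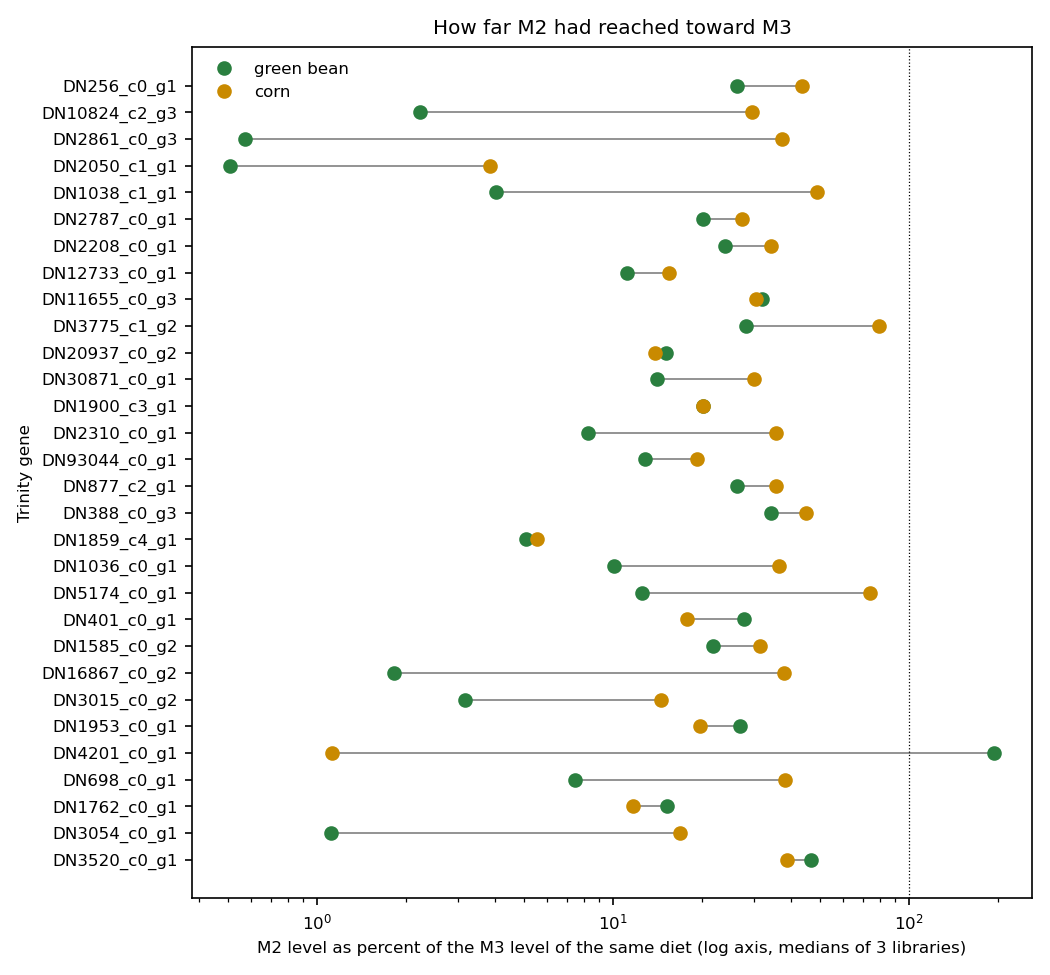
Each row is 1 of the 30 genes. The points give the M2 mean as a percent of the M3 mean of the same diet, although the axis label names medians. Green bean is in green and corn in ochre, on a log axis. A dotted line marks 100%. Most green points lie left of the ochre ones, with medians of 14.6% and 30.3%, while DN1859_c4_g1 and DN1900_c3_g1 have nearly equal points.

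The pattern was not uniform. In DN2861_c0_g3, the M2 mean stood at 0.573% of the M3 mean on green bean and at 37.2% on corn. In DN1859_c4_g1, singled out after its values were seen, it stood at 5.08% on green bean and at 5.55% on corn. Its M2 libraries measured 4.30, 5.20 and 2.24 CPM on green bean and 6.05, 3.26 and 2.94 CPM on corn, and the diets overlapped. DN4201_c0_g1 went the other way, with 10.9, 40.6 and 4.38 CPM in M2 on green bean and 0.587, 0.353 and 0.313 CPM in M2 on corn.

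In M2, 7 of the 30 genes fell on green bean relative to corn and none rose, by edgeR's quasi-likelihood test with Benjamini-Hochberg adjusted p under 0.05 over 23008 genes, all 30 of which passed the filter on low counts. Over all tested genes, 0.339% were lower and 0.161% were higher on green bean by the same call. At an unadjusted p under 0.05, 18 of the 30 genes were lower and 1 was higher, beside 11.2% and 7.59% of all genes. By DESeq2 16 were lower and 1 higher at an adjusted p under 0.05, beside 7.18% and 6.7% of all genes. The fitted log2 fold change was negative in 28 of the 30 genes, with a median of -1.32, against a median of 0.18 over all tested genes. Scaled by library totals in place of TMM, 25 were negative and the medians were -0.86 and 0.50, so relative to all genes the median was -1.51 with TMM and -1.35 with totals. All 3 green bean libraries lay below all 3 corn libraries in 14 of the 30 genes, and in 6.09% of all tested genes. Because the same M2 libraries entered the rule, nothing is read from the excess of these counts over those of all genes.

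**Figure D3:**
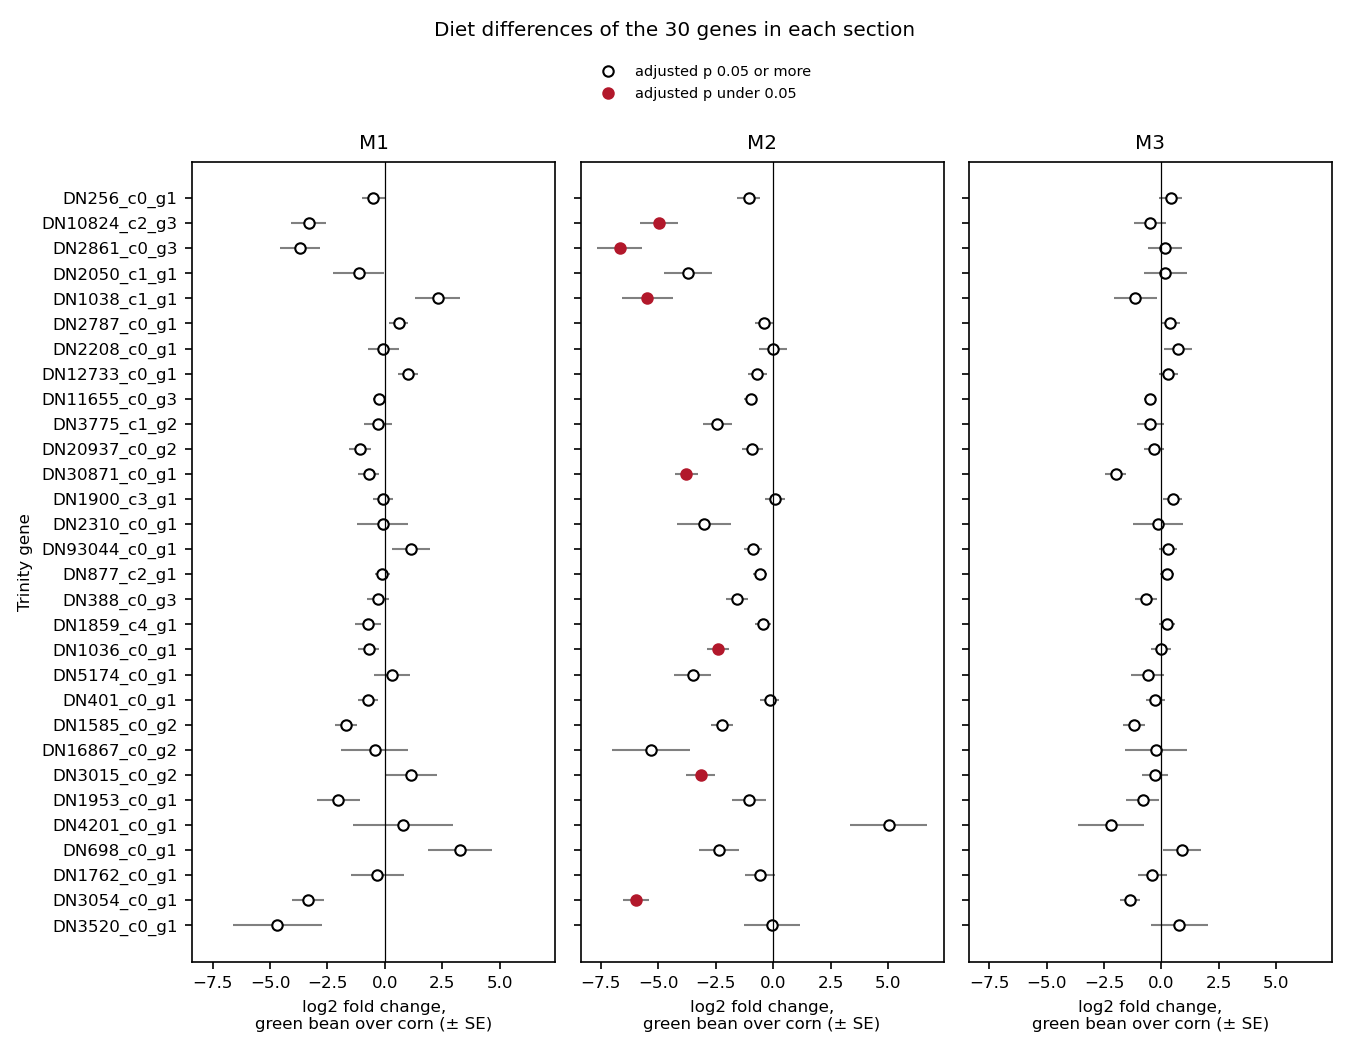
Each row is 1 of the 30 genes and each panel 1 midgut section. Points give the log2 fold change of green bean over corn with its standard error (n = 3 libraries per diet), and filled red points have an adjusted p under 0.05 by edgeR. In M2, 7 points are red and all of these lie left of 0. No point is red in M1 or M3.

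The 2 largest falls among these 7 genes were in DN2861_c0_g3 and DN3054_c0_g1. DN2861_c0_g3 measured 1.04, 2.07 and 2.98 CPM in M2 on green bean, against 36.4, 70.4 and 263.0 CPM on corn, with a log2 fold change of -6.69 ± 0.98 (SE) and an adjusted p of 0.0114 by edgeR. In M3 the diets overlapped, with 298.0, 393.0 and 372.0 CPM on green bean and 311.0, 258.0 and 425.0 CPM on corn. In M1 it measured 0.730, 2.28 and 1.36 CPM on green bean and 8.50, 16.6 and 10.6 CPM on corn. On green bean M1 and M2 thus overlapped and M3 lay above both, while on corn M2 lay above M1 and overlapped M3.

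DN3054_c0_g1 measured 0.0347, 0.122 and 0.0877 CPM in M2 on green bean, against 3.97, 3.89 and 3.48 CPM on corn, with a log2 fold change of -5.97 ± 0.55 (SE) and an adjusted p of 0.000679 by edgeR. The green bean values rest on 1, 3 and 2 counts, so the fitted fold depends on the prior count. Summed over libraries there were 6 counts on green bean and 276 on corn, and the green bean level was 2.09% of the corn level, with an exact 95% interval of 0.759% to 4.60% that covers counting error only. In M3 it measured 7.80, 8.13 and 5.86 CPM on green bean and 38.0, 15.0 and 14.5 CPM on corn, again without overlap between the diets.

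**Figure D4:**
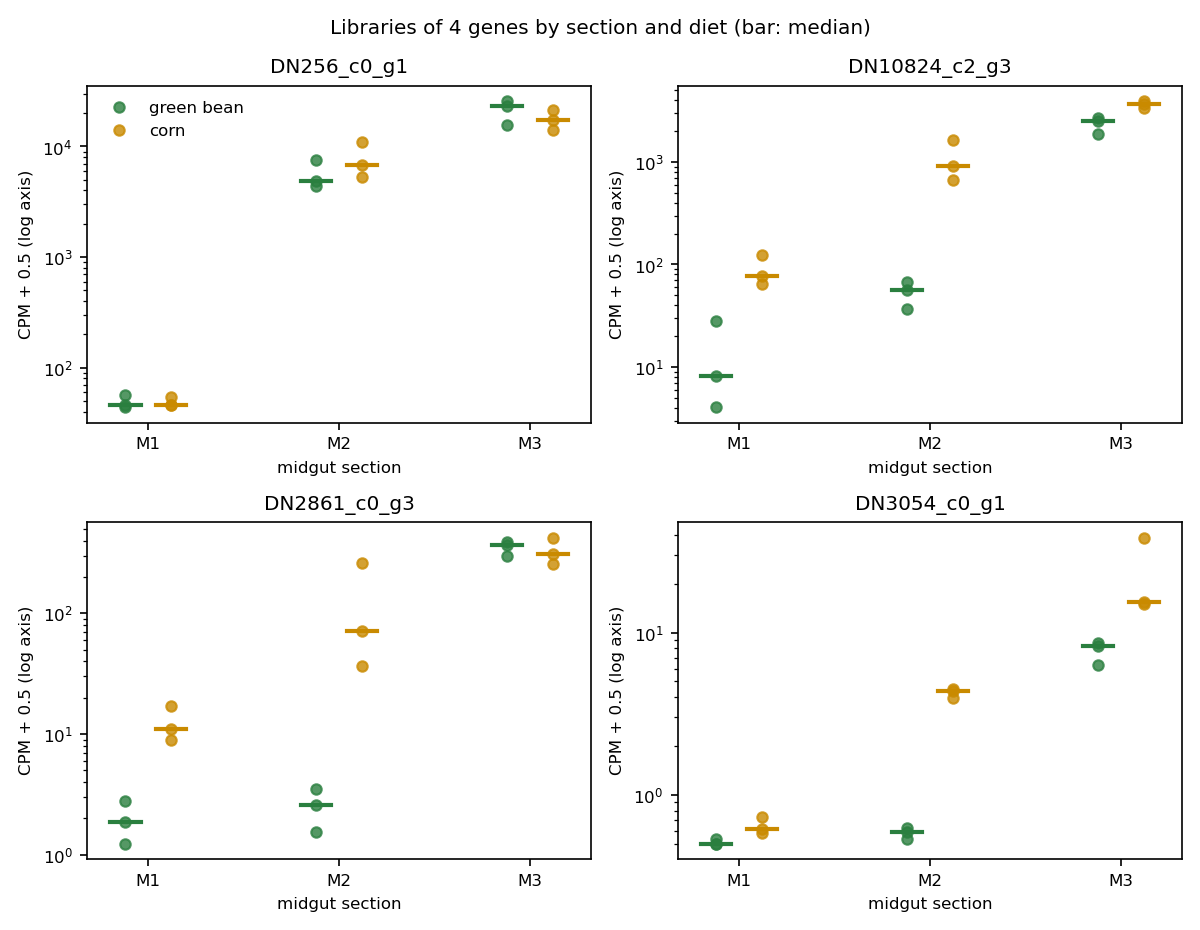
Each panel is 1 gene, with the CPM + 0.5 of each library on a log axis by section, green bean in green to the left of corn in ochre, and a bar at the median of 3 libraries. DN256_c0_g1 has overlapping diets in every section, whereas in DN10824_c2_g3, DN2861_c0_g3 and DN3054_c0_g1 the M2 libraries on green bean all lie below those on corn.

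DN10824_c2_g3 was also among the 7 genes, with a log2 fold change of -4.98 ± 0.83 (SE) and an adjusted p of 0.02 by edgeR. The other 4 had log2 fold changes between -5.49 and -2.41 and adjusted p-values between 0.00864 and 0.0473. The number of genes called was not stable. It was 4 when the fit used the 6 M2 libraries alone and 0 without corn replicates 2 and 3. That fit leaves 1 corn library per section, which is assumed to vary like the green bean groups; in it all 7 genes had negative fold changes, with adjusted p-values of 0.127 to 0.407, and the median over the 30 genes was -0.74. Without green bean M2 replicate 1, 2 or 3 it was 3, 2 or 1, and without corn M2 replicate 1, 2 or 3 it was 12, 3 or 3.

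Genes with other courses along the gut also differed between the diets in M2. By edgeR at an adjusted p under 0.05, 0.339% of all tested genes were lower and 0.161% were higher on green bean. Of 150 genes with a step of at least 3 at M3 only, 13 were lower on green bean and none higher, with a median log2 fold change of -1.13. Of 152 genes with such a step at M2 only, 6 were lower and none higher, with a median of -0.55. Of 105 genes that fell stepwise from M1 to M3, 3 were higher and none lower, with a median of 0.40. The median over all tested genes was 0.18. Scaled by library totals, these 3 medians were -0.72, -0.08 and 0.96, and that over all tested genes was 0.50. Relative to all genes, the 3 medians were -1.32, -0.73 and 0.22 with TMM and -1.22, -0.58 and 0.46 with library totals. Without corn replicates 2 and 3, again with 1 corn library in M2, 1 of the genes that step up at M3 only was called and none in the other lists. As a share of all counts, the genes that step up at M3 only made up 0.624% ± 0.0987 of green bean M2 and 1.16% ± 0.255 of corn M2 (SD, n = 3 each). The stepwise falling genes made up 1.39% ± 0.625 of green bean M2 and 0.684% ± 0.0782 of corn M2 (SD, n = 3 each). In these lists, genes that step up at M3 only thus tended to be lower, and stepwise falling genes higher, in green bean M2 than in corn M2. The lists were cut on the same M2 libraries, so nothing is read from the excess of their counts over all genes. The part of such genes in the difference of the 30 genes was not tested.

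In M1, none of the 30 genes was called between the diets by edgeR, against 0.0217% of all tested genes. At an unadjusted p under 0.05, 3 were higher and 6 lower on green bean, beside 9.1% of all genes in either direction, and by DESeq2 4 were lower, beside 5.83%. Signs in M1 depended on the scaling: 8 were positive and 22 negative with TMM, against 18 and 12 with library totals. In M3, edgeR called none of the 30 genes and 0% of all tested genes. Among the 30 genes 3 had an unadjusted p under 0.05, all lower on green bean, beside 7.89% of all genes in either direction, and DESeq2 called 2, both lower, beside 3.87%. All 3 green bean M3 libraries lay below all 3 corn M3 libraries in 9 of the 30 genes, and in 11.6% of all tested genes.

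Whether a step itself differed between the diets was tested as the difference of the differences. Both steps contain the M2 level, and the rule favours genes whose M2 level differs by diet. The counts for the 2 steps are therefore partly built in, and nothing is read from their excess over all genes. For the step from M1 to M2, edgeR called none of the 30 genes and 0% of all genes. At an unadjusted p under 0.05, 11 of the 30 had a smaller step on green bean and none a larger one, beside 3.34% of all genes in either direction, and DESeq2 called 3, all smaller, beside 0.391%. For the step from M2 to M3, edgeR again called none and 0% of all genes, while 12 had a larger step on green bean and 1 a smaller one at an unadjusted p under 0.05, beside 3.82% of all genes. DESeq2 called 6, all larger, beside 0.313%. For the whole climb from M1 to M3, edgeR called none and 0% of all genes, 3 were larger and 1 smaller at an unadjusted p under 0.05, beside 3.25% of all genes. DESeq2 called 1, which was larger on green bean, beside 0.269%. By edgeR, the different shape of the climb on the 2 diets therefore did not pass the adjusted threshold in any of the 30 genes.

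A test of the steps themselves needs libraries that did not choose the genes. The rule applied to the 9 corn midgut libraries alone gave 43 genes, 16 of them among the 30. In the 9 green bean midgut libraries, 9 of these 43 were higher in both steps by edgeR at an adjusted p under 0.05, against 0.255% of the 19611 genes tested. The first step passed in 10, against 2.07% of all genes, and the second in 33, against 3.46%. Both fold changes were positive in 35 of the 43, or 81.4%, against 20.4% of all genes tested. The median log2 fold change of the 43 was 1.11 for M2 over M1 and 2.91 for M3 over M2. The count of 9 was 5, 4 and 5 without green bean M2 replicates 1, 2 and 3, and 5 and 4 without green bean M3 replicates 2 and 3. With the 40 genes chosen on corn replicate 1 alone, a choice added after the data were seen, it was 8.

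In the other direction, the 9 green bean midgut libraries alone gave 36 genes, 14 of them among the 30. In the 9 corn midgut libraries, 6 of these 36 were higher in both steps by edgeR, against 0.155% of the 16790 genes tested, and 12 were when the replicate number was kept as a block. The first step passed in 26, against 2.28% of all genes, and the second in 8, against 0.87%. Both fold changes were positive in 32 of the 36, or 88.9%, against 22.0% of all genes tested, with medians on the log2 scale of 2.87 for M2 over M1 and 0.94 for M3 over M2. The count of 6 was 3 without corn M1 replicate 2, and 3, 2 and 3 without corn M3 replicates 1, 2 and 3. Both steps thus passed in a minority of the genes chosen on the other diet, and the step that passed in more of them was the second on green bean and the first on corn.

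Salivary glands split the 30 genes. In the corn table, which holds glands and midgut together, 15 genes had a mean of at least 1 CPM in glands and 15 a lower one, 9 of these under 0.1 CPM. The gland mean lay above the corn M1 mean in 14 genes, above the corn M2 mean in 4 and above the corn M3 mean in 1. The gland mean was a median of 0.325% of the M3 mean, with a range of 0 to 603.2%. The rule made these genes low in M1 and high in M3, so these comparisons with the midgut are partly built in. Their shares over all genes were not computed. All 9 genes with an M3 median under 20 CPM were under 1 CPM in glands, and 8 of them under 0.1 CPM.

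The 2 genes with the highest gland level on corn were DN3775_c1_g2 and DN12733_c0_g1. DN3775_c1_g2 averaged 138.0 CPM in corn M3 and 832.2 ± 198.8 CPM in corn glands (SD, n = 3). Its gland values in the gland table were 987.0, 1008 and 526.0 CPM on green bean and 599.0, 979.0 and 874.0 CPM on corn, and the diets overlapped. DN12733_c0_g1 averaged 167.4 CPM in corn M3 and 59.7 ± 8.05 CPM in corn glands (SD, n = 3), with 58.9, 70.8 and 58.3 CPM in glands on green bean and 67.7, 62.6 and 51.8 CPM on corn. The leading midgut gene, DN256_c0_g1, averaged 17650 CPM in corn M3 and 20.7 ± 3.77 CPM in corn glands (SD, n = 3), 0.117% of its M3 mean. In corn glands isoform i3 led this gene.

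**Figure D5:**
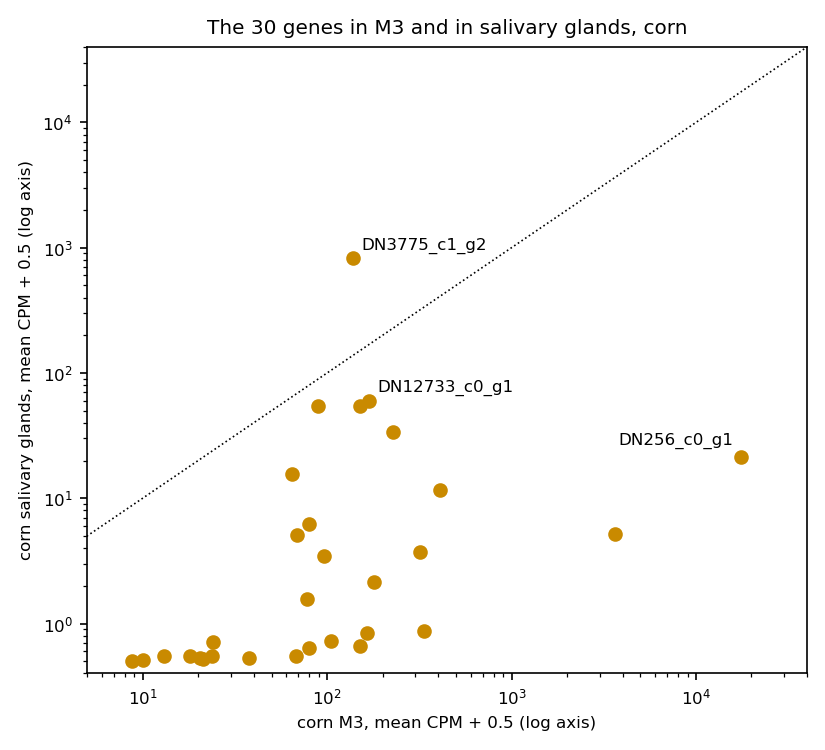
Each point is 1 of the 30 genes, with the mean of 3 corn M3 libraries on the horizontal axis and the mean of 3 corn salivary gland libraries on the vertical axis, both as CPM + 0.5 on log axes. The dotted line marks equal levels. DN3775_c1_g2 is the only point above the line, and DN256_c0_g1 lies far below it at 17650 CPM in M3 and 20.7 CPM in glands.

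Between the diets, 15 of the 30 genes passed the filter on low counts in the gland table, and edgeR called none of them, against 0.118% of the 12741 genes tested. At an unadjusted p under 0.05, 2 of the 15 were lower on green bean and none higher, beside 10.2% of all genes in either direction, and DESeq2 called none, beside 3.15%. Together the 30 genes took 0.112% ± 0.0334 of gland counts on green bean and 0.109% ± 0.0185 on corn (SD, n = 3 each). Of this total, DN3775_c1_g2 alone made up 75.3% on green bean and 75.0% on corn. The other 29 genes took 0.0276% ± 0.0062 on green bean and 0.0273% ± 0.0019 on corn (SD, n = 3 each), a difference smaller than the spread between pools.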

How the data were processed

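The authors deposited estimated counts per Trinity transcript, as whole numbers and not normalized, in 3 tables: corn libraries, glands and midgut. The tools listed, per the submitters' processing notes, are DESeq2 1.20.0, Salmon 0.12 and Trim Galore 0.4.4; their role, the assembly and filters are not given in the sources used here. The same library differs slightly between tables, so each test stayed within 1 table.

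Isoforms were summed to Trinity genes (Python 3.11.15, pandas 2.3.3). Genes were filtered by filterByExpr, scaled by TMM and tested two-sided with edgeR 4.0.16 (R 4.3.3; glmQLFit, robust, glmQLFTest), with a mean per group over the 18 midgut, 6 gland or 9 libraries of a diet. P-values were adjusted by Benjamini-Hochberg over all tested genes and called under 0.05; a standard error is the absolute log2 fold change divided by the square root of F. The code was tested on simulated data. DESeq2 1.42.0, other scalings, no filter, a replicate block and left-out libraries were alternatives.

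The members and comparison lists were chosen with earlier results of these data known. Named genes were the 2 highest in M3, the 2 highest in corn glands, the 2 highest in M3 with a changed leading isoform, and, per test, up to 2 with the largest change in each direction among called genes without overlap; others were singled out after their values were seen. Deviations of same-numbered libraries from their group means correlated at 0.11 to 0.68 between corn sections. Some libraries with different numbers correlated more strongly. Corn M1 replicate 2 correlated at 0.53 with corn M2 replicate 3, against 0.14 with corn M2 replicate 2. Replicate 1 did vary together across corn sections, at 0.66 between M1 and M2, 0.61 between M1 and M3 and 0.68 between M2 and M3. Between replicate 1 and other numbers in another corn section, correlations ran from -0.60 to -0.24. For replicates 2 and 3 the numbers are not shown to pair those sections. On green bean, same-numbered libraries correlated at 0.11 to 0.81 between M1 and M2 and at 0.60 to 0.89 between M1 and M3. Between M2 and M3, 1 such pair correlated at 0. Replicate 1 varied together there too, at 0.81, 0.89 and 0.76, against -0.84 to 0.07 with other numbers in another section. Green bean M1 replicate 2 correlated at 0.57 with green bean M2 replicate 3, so pairing of replicates 2 and 3 is not shown there either. The main tests leave the numbers out, and fits with a replicate block are given as alternatives.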

Additional observations from a re-analysis of the deposited data

How the results depend on the processing

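The count of 30 genes became 108 with steps of at least 2 and 5 with steps of at least 5. Among the other ways of choosing, it ran from 21 with TMM-scaled CPM, where 19 genes were shared, to 44 with an offset of 0.1 CPM, and 24 to 34 with 1 library left out. Which genes were chosen was less stable than their number. Without corn M2 replicate 1, 2 or 3, 19, 20 and 20 of the 30 genes were kept. Without green bean M2 replicate 1, 2 or 3, 23, 22 and 22 were kept. Leaving out 1 M1 or M3 library kept 23 to 30. Of the 7 genes lower on green bean in M2, DESeq2 gave 17 (16 lower, 1 higher), the 6 M2 libraries alone 4, leaving out corn replicates 2 and 3 gave 0, and leaving out 1 library gave 1 to 12. Library totals gave 5 and no filter 7. Each of the 7 kept a negative fold change in all 13 alternatives, and between 5 and 12 of these left it past the threshold. The counts of 0 became 1 without the filter and 4 by DESeq2 in M1, 1 and 2 in M3, 2 and 3 for the step from M1 to M2, and 1 and 6 for the step from M2 to M3. For the whole climb DESeq2 gave 1. Genes chosen on corn and higher in both steps on green bean numbered 9, 17 without the filter and 4 to 10 with 1 library left out. Genes chosen on green bean and higher in both steps on corn numbered 6, 11 by DESeq2, 12 with a replicate block, and 2 to 5 with 1 library left out. The cause of these changes was not tested. Between the diets the numbers did not pair libraries (correlations of -0.09 to 0.04 in midgut, -0.09 to 0.15 in glands), and a replicate block gave 9 genes in M2. In green bean sections a replicate block gave 11 in place of 9. Few counts limit the M1 values of the 9 genes under 30 counts.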
